A study of Mus musculus with 6 samples.

Results

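The calcineurin pathway was followed in mouse cardiac grafts through 10 genes: the calcineurin catalytic subunits Ppp3ca, Ppp3cb and Ppp3cc, the regulatory subunit Ppp3r1, the transcription factors Nfatc1, Nfatc2, Nfatc3 and Nfatc4, and the calcipressins Rcan1 and Rcan2. The genes were chosen by name as the route on which cyclosporin A (CsA) acts in lymphocytes and heart muscle, and all 10 of them were found among 12393 measured genes. They were read by 25 probe sets, groups of short array oligonucleotides designed to 1 transcript region, out of 20380 that the platform annotation assigns to exactly 1 gene. A further probe set, 1450368_a_at, is listed for Ppp3r1 and Wdr92 together and was left out.

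The study placed 1 Affymetrix array in each of 6 groups. Of these, 4 were allografts from mice given CsA (15 mg/kg every 24 h), tetrahydrobiopterin (BH4, 50 mg/kg every 8 h), its 4-amino analog (ABH4, 50 mg/kg every 8 h) or N-imino ethyl-L-lysine (NIL, which blocks inducible nitric oxide synthase, 5 mg/kg every 8 h). The fifth array was an untreated allograft and the sixth an untreated syngraft, a graft between genetically matched animals. Mouse strains, ages, the day of removal and the number of grafts behind each array are not given in the sources used here. With 1 array a group there is no spread between replicates, no test was possible, and every difference below compares single arrays.

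Calcineurin is a phosphatase that calcium and calmodulin switch on, built of a catalytic A subunit and a calcium-binding B subunit. It removes phosphate from NFAT factors, which then enter the nucleus and bind DNA at a GGAAA core, switching on cytokine genes in T cells and growth genes in stressed heart muscle. CsA bound to a cyclophilin blocks the activity of the enzyme itself, which transcript signals do not measure. Calcipressins bind calcineurin and restrain it, and a short Rcan1 transcript that starts inside the gene is itself an NFAT target.

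Upstream sequences are shown for Rcan1, because its internal start carries that NFAT control, and for Nfatc2 and Nfatc4, whose brightest probe sets stood furthest below the syngraft. Each is the 250 bases before an annotated start in RefSeq (build GRCm38.p6), written 5′ to 3′ on the strand of the gene, with GGAAA or its reverse complement TTTCC in capitals. Rcan1 lies on the minus strand, with the upstream start at chr16:92466170-92466419 and the internal start at chr16:92400079-92400328. Nfatc2 is on the minus strand at chr2:168601658-168601907, and Nfatc4 on the plus strand at chr14:55824545-55824794.
Rcan1 upstream start: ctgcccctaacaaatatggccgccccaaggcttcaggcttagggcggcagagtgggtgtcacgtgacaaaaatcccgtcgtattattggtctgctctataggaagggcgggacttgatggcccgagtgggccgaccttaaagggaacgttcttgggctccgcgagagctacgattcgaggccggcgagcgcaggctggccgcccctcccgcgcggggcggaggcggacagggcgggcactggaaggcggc
Rcan1 internal start: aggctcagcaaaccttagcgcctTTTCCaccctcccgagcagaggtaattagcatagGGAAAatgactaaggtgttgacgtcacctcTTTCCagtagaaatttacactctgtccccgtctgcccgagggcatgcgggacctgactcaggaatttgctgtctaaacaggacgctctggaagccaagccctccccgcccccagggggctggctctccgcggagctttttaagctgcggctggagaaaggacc
Nfatc2: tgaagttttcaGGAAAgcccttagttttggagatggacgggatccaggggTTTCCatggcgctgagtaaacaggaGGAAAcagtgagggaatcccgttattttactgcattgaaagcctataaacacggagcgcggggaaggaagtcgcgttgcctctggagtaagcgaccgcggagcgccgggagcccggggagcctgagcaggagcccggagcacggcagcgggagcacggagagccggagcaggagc
Nfatc4: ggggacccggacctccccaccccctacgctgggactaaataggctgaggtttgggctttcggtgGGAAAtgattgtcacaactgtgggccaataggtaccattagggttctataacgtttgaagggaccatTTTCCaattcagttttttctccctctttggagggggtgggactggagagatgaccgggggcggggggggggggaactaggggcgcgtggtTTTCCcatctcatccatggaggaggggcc
The Rcan1 upstream window held 0 matches and the internal window 3, whose first bases lay at -227, -193 and -163 from the start. The Nfatc2 and Nfatc4 windows also held 3 each, and a second annotated Nfatc2 start held 1. At least 1 match occurred in 55.6% and at least 3 in 6.39% of 32851 windows of this length, and the motif was searched on both strands with no overlap between matches. Entries were found for 7 of the 10 genes. Among those not shown, the Ppp3cb window also held 3 matches. The 3 Rcan2 starts held 2, 0 and 0, the 2 Nfatc3 starts 1 and 0, and Ppp3r1 0. A match is a string of letters and not a measured binding site.

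Signals are linear intensities, rescaled so that the median of every array was equal. A floor was set at 34.8, the 30th percentile of all values. A difference with 1 array at the floor is a lower bound and is given as "at least". Of the 25 probe sets, 19 were above the floor on all 6 arrays, 4 on some of them and 2 (1426031_a_at of Nfatc2 and 1423379_at of Nfatc4) on none. Signals of different genes are not comparable on such arrays and are not set against each other. All 10 cardiomyocyte markers looked up, among them Myh6, Tnnt2 and Actc1, were above the floor on all 6 arrays, as the heart label requires. The BH4 array stood apart in salivary gland transcripts: the 4 markers summed to 272 with CsA, 10479 with BH4, 174 with ABH4, 444 with NIL and 146 in the untreated allograft, against 179 in the syngraft, and their part in the BH4 values below was not tested.

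Against the untreated allograft, the CsA array differed by at least 1.5-fold in a share of these probe sets near or below that of all probe sets. It did so for 3 of the 25 probe sets, 1 higher and 2 lower, where 20.2% of all 20380 probe sets were that far apart (8.14% higher and 12.0% lower). Among probe sets above the floor on both arrays it was 2 of 20, beside 24.9% of all such probe sets. The median size of the log2 difference was 0.16 over the 25 probe sets and 0.22 over all. Rescaling moved the medians of these arrays by 0.19 against each other. On the values as deposited 2 of the 25 were higher and 1 lower, beside 12.4% and 7.28% of all, and after quantile normalization 2 were higher and 2 lower, beside 8.86% and 9.21%.

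**Figure D1:**
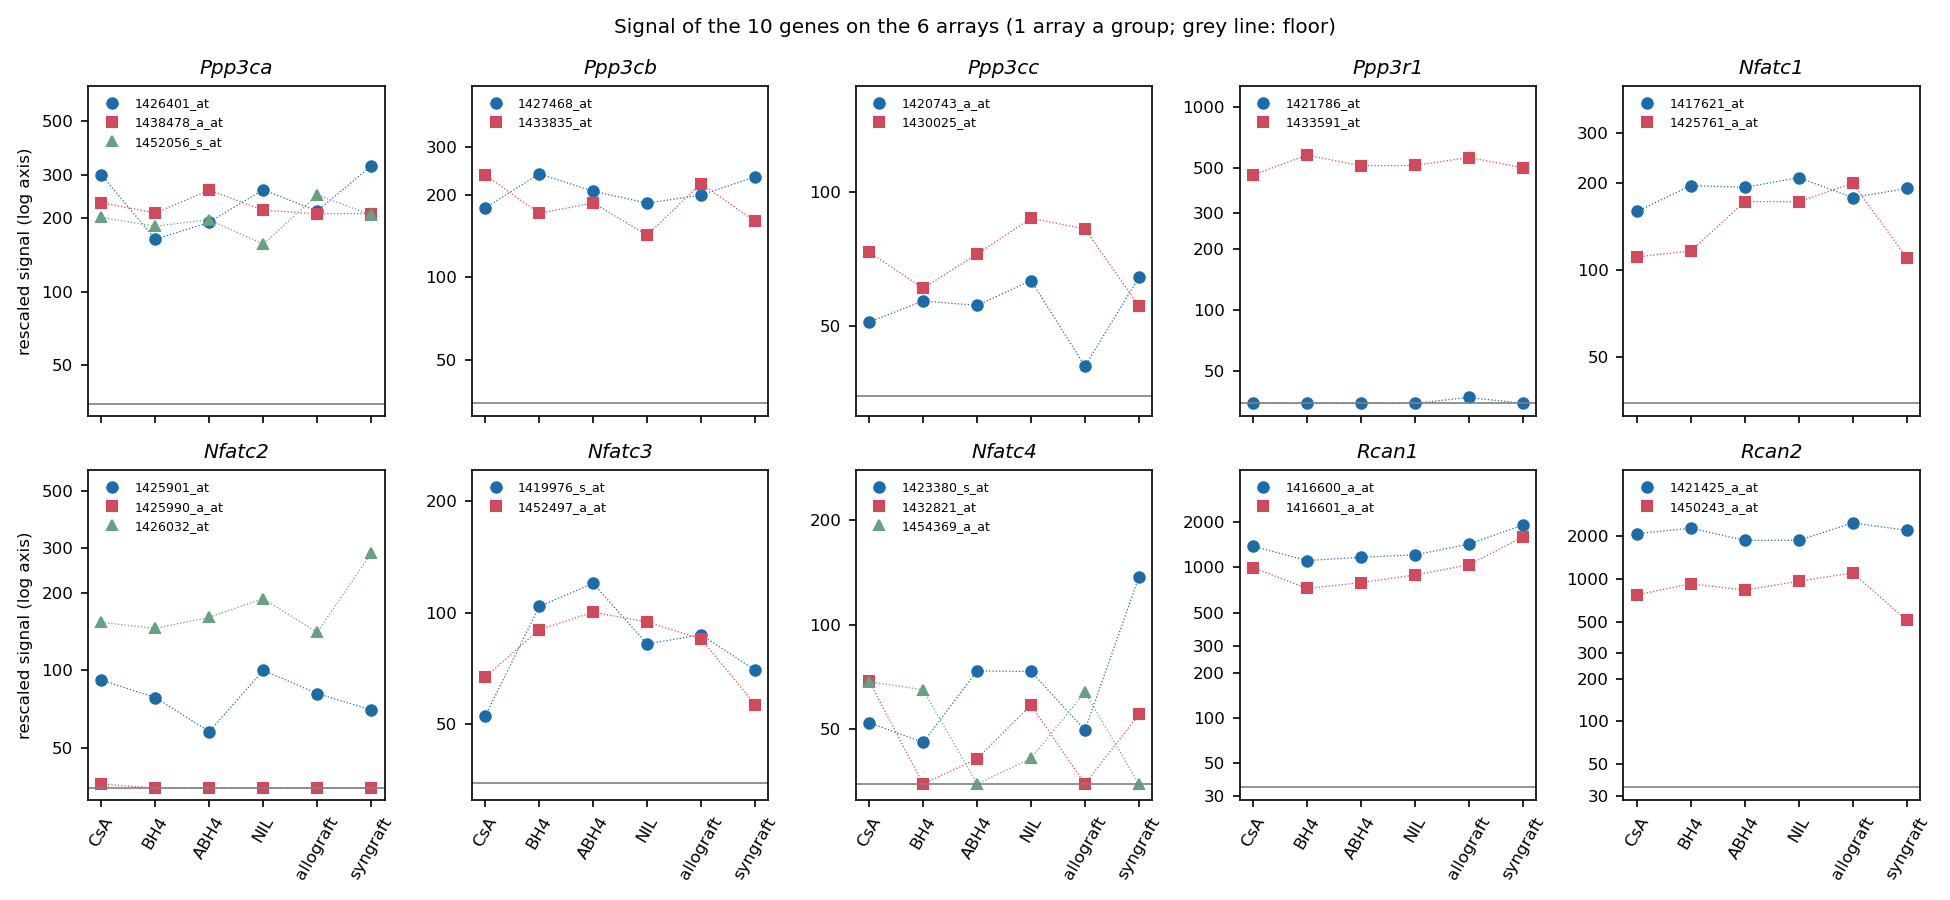
Rescaled signal (log axis) of every probe set above the floor on at least 1 array, in 1 panel per gene, with the 6 arrays along the horizontal axis and the floor of 34.8 as a grey line. Each symbol is 1 array, and the dotted lines only join the points of a probe set, with values below the floor drawn on it. Both Rcan1 probe sets are highest in the syngraft, while probe sets of Ppp3cb, Ppp3cc and Nfatc4 cross each other.

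The calcineurin B subunit Ppp3r1, which every calcineurin enzyme of body tissues needs, varied least of the 10 genes when each is read by its brightest probe set. Here that was 1433591_at, which had signals of 462 with CsA, 578 with BH4, 512 with ABH4, 514 with NIL and 563 in the untreated allograft, against 502 in the syngraft. The highest array was 1.25-fold above the lowest, and the CsA array was the lowest, 1.22-fold below the untreated allograft. The other probe set, 1421786_at, was above the floor on the untreated allograft array alone, at 37.2.

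Ppp3ca, the main catalytic subunit of brain, was read by 3 probe sets that did not move together. For 1426401_at the signals were 300.2 with CsA, 164 with BH4, 193 with ABH4, 261 with NIL and 214 in the untreated allograft, against 326 in the syngraft. This put the untreated allograft 1.53-fold below the syngraft and CsA 1.41-fold above the untreated allograft, or 0.68 instead of 0.49 on the log2 scale on the deposited values. The other pair gave a different order. For 1438478_a_at all 6 arrays lay between 208 and 260.3, with ABH4 highest, and for 1452056_s_at they lay between 156 and 249, with the untreated allograft highest and NIL 1.59-fold below it.

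The catalytic subunits Ppp3cb, which T cells also use, and Ppp3cc, best known from testis, likewise differed between their probe sets. For Ppp3cb, 1427468_at gave 180 with CsA, 239 with BH4, 207 with ABH4, 187 with NIL and 199.9 in the untreated allograft, against 233 in the syngraft. The second, 1433835_at, gave 237 with CsA, 171 with BH4, 187 with ABH4, 143 with NIL and 220.2 in the untreated allograft, against 160.3 in the syngraft. CsA was the lowest of the 6 rescaled arrays on the first, where its difference from the untreated allograft changed sign on the deposited values (0.03 instead of -0.15), and the highest on the second. No direction can be given for Ppp3cb.

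Ppp3cc was dim on both of its probe sets. On 1430025_at it gave 73.3 with CsA, 60.8 with BH4, 72.6 with ABH4, 87.4 with NIL and 82.7 in the untreated allograft, against 55.4 in the syngraft. On 1420743_a_at it gave 51.0 with CsA, 56.9 with BH4, 55.6 with ABH4, 63.3 with NIL and 40.5 in the untreated allograft, against 64.3 in the syngraft. These place the untreated allograft 1.49-fold above the syngraft on the first and 1.59-fold below it on the second, a difference of -0.67 on the log2 scale that was -0.52 and so under 1.5-fold after quantile normalization.

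Nfatc1, a factor that activated T cells induce and that heart valves need in development, was split between its probe sets as well. On 1425761_a_at the signals were 111 with CsA, 117 with BH4, 173 with ABH4, 173 with NIL and 200.4 in the untreated allograft, against 111 in the syngraft. This was the largest difference under CsA among probe sets above the floor on both arrays, 1.80-fold lower than the untreated allograft. The untreated allograft was 1.81-fold above the syngraft, and BH4 was 1.72-fold below the untreated allograft. On 1417621_at the signals were 160.0 with CsA, 197 with BH4, 194 with ABH4, 209.6 with NIL and 179 in the untreated allograft, against 192 in the syngraft, a span of 1.31-fold in which the untreated allograft did not stand above the rest.

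The 1425761_a_at signal of Nfatc1 was low on the arrays where T cell transcripts were low. The summed signal of the 10 measured T cell markers was 551 with CsA, 1958 with BH4, 2584 with ABH4, 2591 with NIL and 2381 in the untreated allograft, against 506 in the syngraft. Above the floor were 5 of these markers with CsA and 9 on each of the other 4 allograft arrays, against 2 in the syngraft. At the floor were Cd3d, Cd3e, Cd2, Cd4 and Cd8b1 with CsA, and Cd4 on every array. The syngraft, CsA and BH4 arrays were the 3 lowest both for this Nfatc1 signal and for the T cell sum. For Nfatc1 these 3 lay close together, and on the deposited values BH4 (110.1) was below the syngraft (117.6) and CsA (118.2). The T cell sum with BH4 was nearer to that of the untreated allograft than to that with CsA. The part of T cell numbers in the Nfatc1 difference was not tested, and in whole grafts fewer cells of a type and less RNA per cell cannot be told apart.

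Nfatc3, which is present in both lymphocytes and heart muscle, had 2 probe sets that ran broadly together. On 1419976_s_at the signals were 52.7 with CsA, 104 with BH4, 119.9 with ABH4, 82.3 with NIL and 87.2 in the untreated allograft, against 70.0 in the syngraft. On 1452497_a_at they were 67.1 with CsA, 90.0 with BH4, 100.3 with ABH4, 94.4 with NIL and 85.0 in the untreated allograft, against 56.6 in the syngraft. CsA and the syngraft were the lowest arrays on both and ABH4 the highest. CsA was 1.66-fold and 1.27-fold below the untreated allograft, and the untreated allograft 1.25-fold and 1.5-fold above the syngraft. On the deposited values neither was past 1.5-fold on either probe set, with log2 differences of -0.54 and -0.16 for CsA and 0.13 and 0.40 for the untreated allograft, and with the floor at the 50th percentile the CsA difference on the first was -0.07. The low arrays are again those with the smallest T cell marker sums. On the rescaled values they also had the smallest sums of the 10 macrophage markers (11858 with CsA, and 13359 to 17371 on the other 4 allograft arrays, against 11363 in the syngraft). That macrophage order rests on the rescaling, which shifted CsA by -0.09 and the untreated allograft by 0.10 on the log2 scale. On the deposited values the macrophage sum with CsA was not below that of the untreated allograft. The part of either cell type in the Nfatc3 values was not tested.

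Nfatc2, the leading NFAT factor of resting T cells, was higher in the syngraft than on every allograft array on its brightest probe set. For 1426032_at the signals were 154 with CsA, 146 with BH4, 161 with ABH4, 190.4 with NIL and 141 in the untreated allograft, against 286 in the syngraft. The untreated allograft was 2.03-fold and CsA 1.86-fold below the syngraft. The T cell marker sums given above were 551 with CsA and 2381 in the untreated allograft, against 506 in the syngraft, and their part in this difference was not tested. The second probe set above the floor throughout, 1425901_at, did not show this: it gave 91.7 with CsA, 78.3 with BH4, 57.8 with ABH4, 100.01 with NIL and 81.2 in the untreated allograft, against 70.2 in the syngraft. Of the remaining pair, 1425990_a_at was just above the floor with CsA (36.1) and on no other array, and 1426031_a_at on none.

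Nfatc4, the NFAT factor first tied to growth of stressed heart muscle, was close to the floor and held both the widest range of any member and the sharpest disagreement. On 1423380_s_at the signals were 52.2 with CsA, 45.8 with BH4, 73.6 with ABH4, 73.3 with NIL and 49.7 in the untreated allograft, against 137 in the syngraft. The untreated allograft was 2.75-fold and CsA 2.63-fold below the syngraft. On 1454369_a_at the signals were 68.5 with CsA, 64.9 with BH4, 41.2 with NIL and 63.9 in the untreated allograft, while ABH4 and the syngraft were at the floor, so that the untreated allograft was at least 1.84-fold above the syngraft. On 1432821_at CsA (68.7), ABH4 (41.1), NIL (58.7) and the syngraft (55.1) were above the floor and BH4 and the untreated allograft were not. That probe set is the 1 called higher with CsA, at least 1.97-fold.

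Rcan1, the calcipressin whose internal start is under NFAT control, was the 1 gene whose brightest probe sets gave the same order of arrays. On 1416600_a_at the signals were 1383 with CsA, 1112 with BH4, 1169.7 with ABH4, 1211 with NIL and 1428 in the untreated allograft, against 1914 in the syngraft. On 1416601_a_at they were 998 with CsA, 724 with BH4, 793 with ABH4, 890.4 with NIL and 1041 in the untreated allograft, against 1593 in the syngraft. Both placed the 6 rescaled arrays in the same order, with the syngraft highest, then the untreated allograft, CsA, NIL, ABH4 and BH4.

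All 5 allografts were below the syngraft for Rcan1. The untreated allograft was 1.34-fold and 1.53-fold below it (1416600_a_at first), and the first of these was -0.42 on the log2 scale, or -0.61 on the deposited values. CsA was 1.38-fold and 1.60-fold below the syngraft. CsA and the untreated allograft were close, with log2 differences of -0.05 and -0.06 that turned to 0.14 and 0.13 on the deposited values and to 0.20 and 0.23 after quantile normalization, so no direction can be given between them. BH4 was 1.28-fold and 1.44-fold, ABH4 1.22-fold and 1.31-fold, and NIL 1.18-fold and 1.17-fold below the untreated allograft. The NIL differences depended on the scaling. On the log2 scale they were -0.24 and -0.22, but -0.09 and -0.08 on the deposited values and -0.04 and -0.02 after quantile normalization.

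The agreement of the Rcan1 probe sets in the order of all 6 arrays was uncommon. Of 2833 genes with a pair of probe sets above the floor on all 6 arrays, the 2 brightest gave the same order of all 6 arrays in 2.68%, and both had the syngraft highest in 11.5%. These shares cover pairs of any signal above the floor and were not matched to the signal of the Rcan1 pair. Among the 8 members with such a pair, Rcan1 alone did either. For the syngraft highest in both, 1 of 8 is near the share of all such genes. Whether the probe sets read the upstream transcript, the internal transcript or both is not given in the sources used here. The 6 endothelial markers, another cell type that carries Rcan1, summed to 1169 with CsA, 791 with BH4, 793 with ABH4, 878 with NIL and 844 in the untreated allograft, against 1430 in the syngraft, all above the floor except Tie1 with ABH4 and NIL and Vwf with NIL. The 10 cardiomyocyte markers summed to 57421 with CsA, 54179 with BH4, 45536 with ABH4, 48734 with NIL and 55097 in the untreated allograft, against 58594 in the syngraft. The part of either cell type in the Rcan1 values was not tested.

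Rcan2, the calcipressin enriched in brain, heart and muscle, did not follow Rcan1. On 1421425_a_at the signals were 2085 with CsA, 2279 with BH4, 1870.1 with ABH4, 1873 with NIL and 2481 in the untreated allograft, against 2203 in the syngraft. On 1450243_a_at they were 775 with CsA, 926 with BH4, 837 with ABH4, 965 with NIL and 1105 in the untreated allograft, against 514 in the syngraft. Highest on both was the untreated allograft. It was 2.15-fold above the syngraft on the second but only 0.17 above it on the log2 scale on the first, where the sign turned under both other scalings (-0.02 on the deposited values and -0.03 with quantile normalization). CsA was 1.19-fold and 1.43-fold below the untreated allograft. These were -0.25 and -0.51 on the log2 scale, but -0.07 and -0.33 on the deposited values and -0.02 and -0.23 after quantile normalization.

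**Figure D2:**
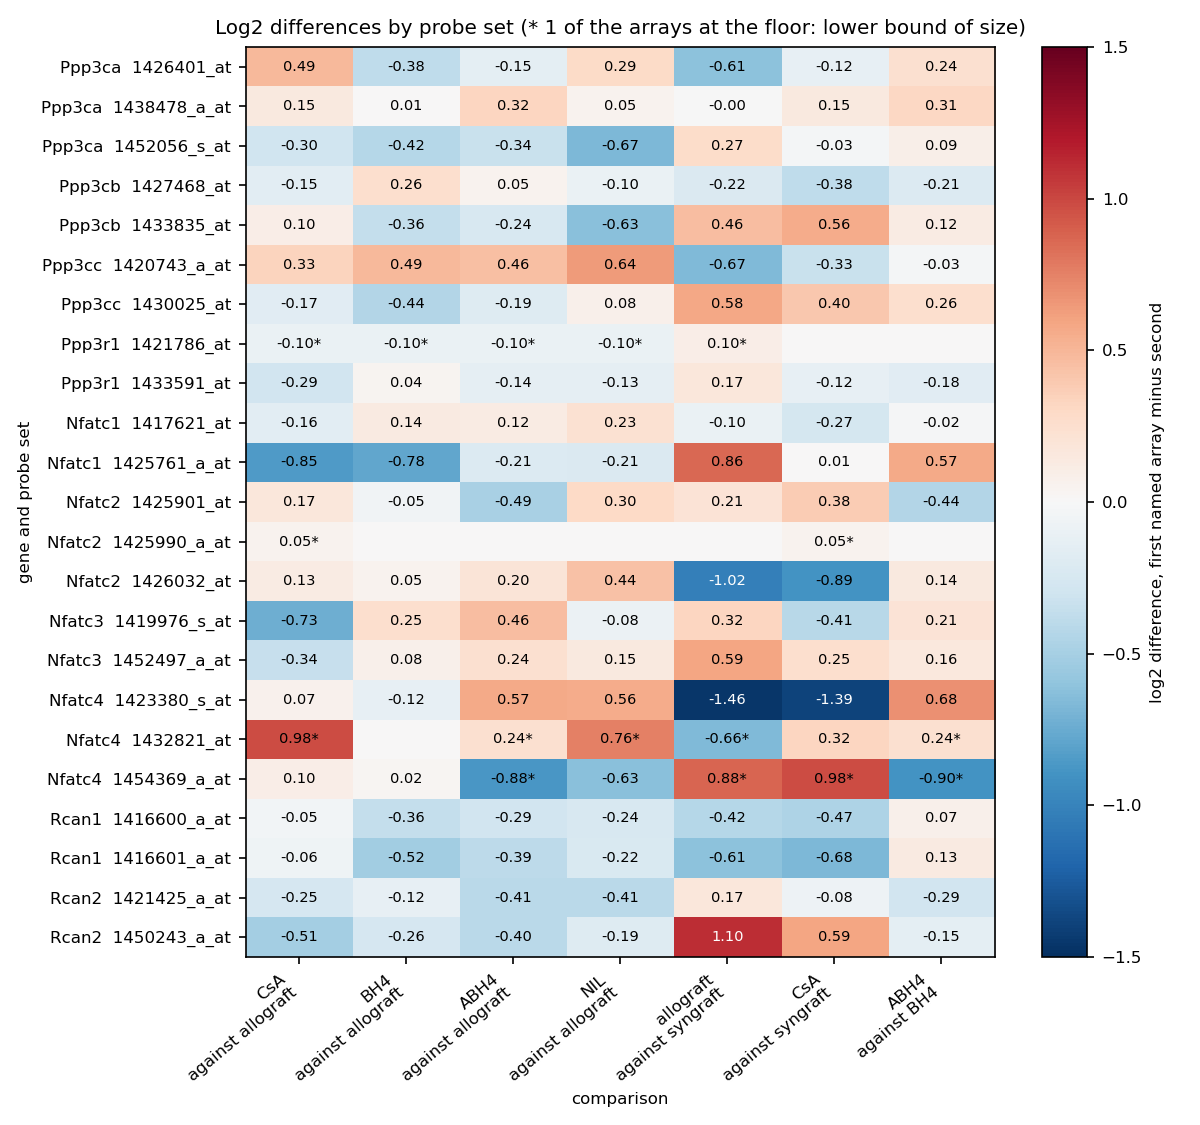
Log2 differences (colour and number) of the 23 probe sets above the floor on at least 1 array, in rows, for 7 comparisons, in columns, each as the array named first minus the second. Stars mark lower bounds and blank cells probe sets at the floor on both arrays. The column of untreated allograft against syngraft holds the strongest colours, from -1.46 (Nfatc4) to 1.10 (Rcan2).

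Between untreated allograft and syngraft, a larger share of these probe sets stood apart than of all probe sets, with no test of the difference. At least 1.5-fold apart were 10 of the 25, 4 higher and 6 lower, beside 25.6% of all probe sets, 14.6% higher and 11.0% lower. Among probe sets above the floor on both arrays it was 8 of 19, beside 31.3%. On the deposited values 3 were higher and 7 lower, beside 10.3% and 16.0% of all. The 4 higher were 1 probe set each of Nfatc1, Nfatc3, Nfatc4 and Rcan2. The 6 lower were 1 each of Ppp3ca, Ppp3cc, Nfatc2 and Rcan1 and 2 of Nfatc4. Of the 8 genes with a pair of probe sets above the floor on all 6 arrays, the pair had the same sign in Ppp3ca, Nfatc3, Rcan1 and Rcan2 (4 of 8), beside 73.4% of the 2833 genes, and the second Ppp3ca probe set was almost level between these arrays. In the other comparisons the pair had the same sign in 6 of 8 for CsA against untreated allograft (69.1% of the 2833 genes), 3 for BH4 (60.8%), 3 for ABH4 (62.1%), 6 for NIL (63.5%), 4 for ABH4 against BH4 (60.7%) and 1, Rcan1, for CsA against syngraft (61.9%).

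Over all 6 arrays, 14 of the 19 probe sets above the floor throughout spanned at least 1.5-fold, beside 63.2% of 12324 such probe sets, and 8 did so among the 5 allografts alone, beside 49.7%. The syngraft was the highest array for 6 of them (22.9% of all) and the lowest for 4 (27.9% of all). CsA was the lowest of the 5 allografts for 7 (36.3% of all) and the highest for 2 (21.6% of all), and for 1 of these, Ppp3ca 1426401_at, the syngraft was highest and CsA next (10.3% of all). BH4 was the lowest of the 6 arrays for 4, namely Ppp3ca 1426401_at, Nfatc4 1423380_s_at and both Rcan1 probe sets (9.97% of all), on the array that also held the salivary gland transcripts.

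**Figure D3:**
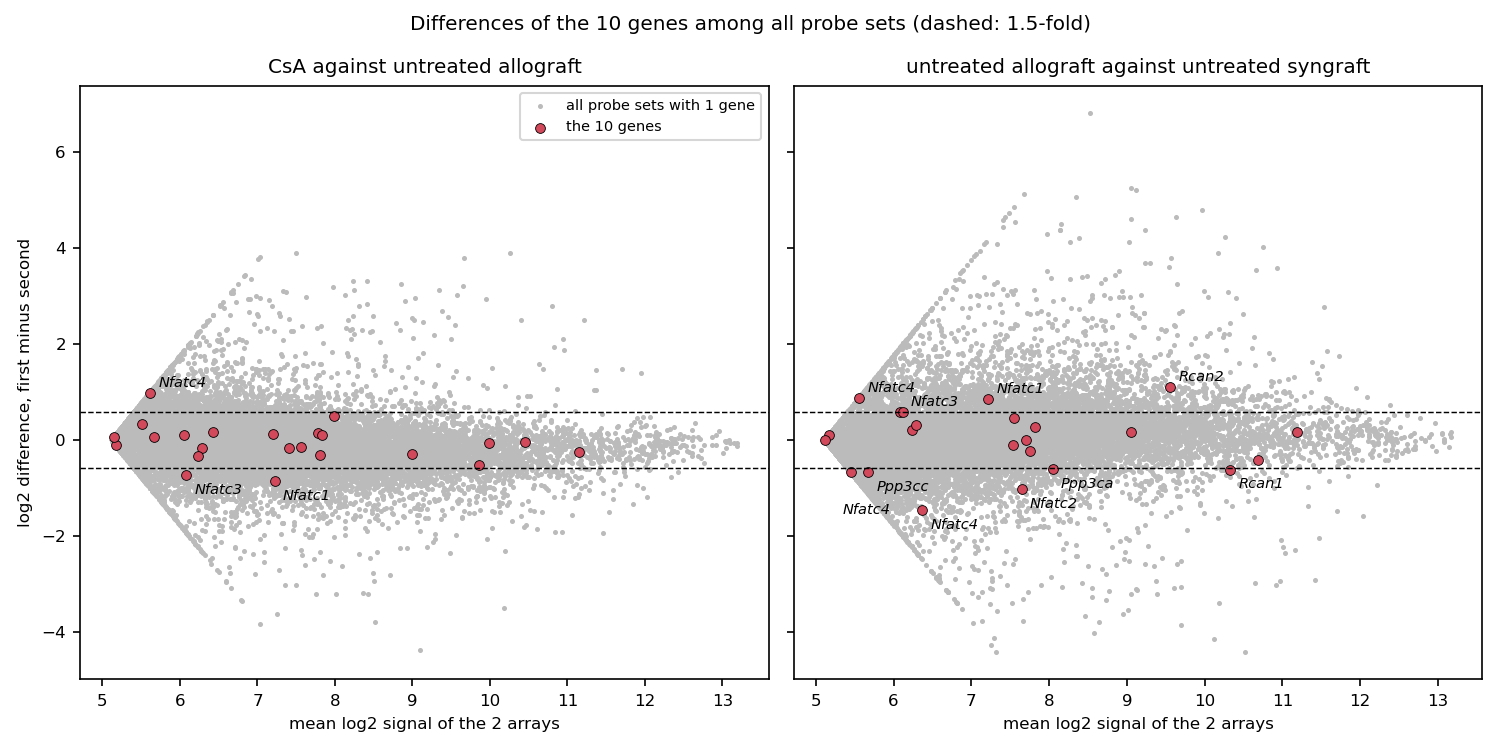
Log2 difference (vertical axis) against the mean log2 signal of the compared arrays (horizontal axis) for all 20380 probe sets (grey) and those of the 10 genes above the floor on at least 1 array (red), for CsA against untreated allograft (left) and untreated allograft against syngraft (right). Dashed lines mark 1.5-fold, and members beyond them are named. The members lie inside the grey cloud in both panels, with 3 beyond the lines at left and 10 at right.

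The CsA array set against the syngraft gave 5 of the 25 probe sets at least 1.5-fold apart, 2 higher and 3 lower, beside 12.7% of all (6.49% higher and 6.21% lower). The 3 lower were Nfatc2 1426032_at, Nfatc4 1423380_s_at and Rcan1 1416601_a_at, which were also lower in the untreated allograft. The 2 higher were Nfatc4 1454369_a_at, at least 1.97-fold, and Rcan2 1450243_a_at, 1.51-fold. After quantile normalization the Rcan2 difference was 0.58 on the log2 scale, just short of 1.5-fold. Both comparisons share the syngraft array, so a low or high value there enters each of them.

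Fewer members were past 1.5-fold with the pteridines and NIL than between untreated allograft and syngraft. The median size of the log2 difference from the untreated allograft was 0.12 over the 25 probe sets and 0.12 over all with BH4, 0.24 and 0.11 with ABH4, and 0.22 and 0.18 with NIL. With BH4 1 of the 25 was at least 1.5-fold apart (Nfatc1 1425761_a_at, lower), beside 8.23% of all (4.46% higher and 3.78% lower). With ABH4 it was also 1 (Nfatc4 1454369_a_at, at least 1.84-fold lower), beside 5.63% of all (3.08% higher and 2.55% lower). With NIL it was 5, beside 12.0% of all (5.55% higher and 6.44% lower). Higher with NIL were Ppp3cc 1420743_a_at (1.56-fold) and Nfatc4 1432821_at (at least 1.69-fold), and lower were Ppp3ca 1452056_s_at (1.59-fold), Ppp3cb 1433835_at (1.54-fold) and Nfatc4 1454369_a_at (1.55-fold). On the deposited values NIL had 4 higher and 0 lower, beside 8.32% and 3.55% of all, and after quantile normalization 1 higher and 1 lower, so the calls with NIL depend on the scaling. These 3 comparisons and that of CsA share the untreated allograft array.

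ABH4 carries an amino group in place of the oxygen at the pteridine's 4-position and is an antagonist of the cofactor BH4, and both were given at the same dose and interval. Between these arrays 2 of the 25 probe sets were at least 1.5-fold apart, beside 7.57% of all (3.65% higher and 3.92% lower), and both belonged to Nfatc4. On 1423380_s_at ABH4 was 1.61-fold above BH4 (73.6 with ABH4 and 45.8 with BH4), and on 1454369_a_at it was at the floor and at least 1.87-fold below BH4 (64.9). The closest further difference was Nfatc1 1425761_a_at, with 173 under ABH4 and 117 under BH4, 1.48-fold. With 1 array each no interval can be given, so the other probe sets are not shown to be alike.

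For 6 of the genes the brightest probe set was above the floor on all 6 arrays and spanned at least 1.5-fold, and the genes most like them were sought by root-mean-square distance of centred log2 values over the 6 arrays, among 8093 genes. Nearest to Rcan1 were the ubiquitin protease Usp47 (0.050), the stress kinase Map3k5 (0.060) and the respiratory chain subunit Ndufb3 (0.062), where the median distance was 0.354. Usp47 had signals of 785 with CsA, 645 with BH4, 681 with ABH4, 647 with NIL and 765 in the untreated allograft, against 1059 in the syngraft. Nearest to Ppp3ca were Btbd3 (0.060), Srrm3 (0.096) and Hrk (0.097), to Ppp3cc Thoc2 (0.057), Rrp36 (0.080) and Traf6 (0.083), and to Nfatc2 Pde4a (0.072), Xist (0.077) and Trim29 (0.078). Nearest to Nfatc3 were Nt5c (0.086), Clec4n (0.095) and Tinf2 (0.105), and to Nfatc4, at larger distances, Col25a1 (0.165), Nrip3 (0.183) and Atp6v0e2 (0.195). Over 6 arrays many genes share a profile, and likeness here is a description.

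Other genes of the pathway were described from lists chosen for their roles with earlier results of these data known, each gene by its brightest probe set. The NFAT-dependent genes of T cells, the cytokines and receptors that the pathway switches on, differed most. Of the 24 measured, 16 were above the floor with CsA, 16 in the untreated allograft and 13 in the syngraft. With CsA 12 of 24 were at least 1.5-fold lower and 0 higher (median -0.56), beside 12.2% of all genes lower and 9.31% higher, and in the untreated allograft 11 were higher than in the syngraft and 1 lower (median 0.45), beside 15.4% and 11.9% of all. The median over all genes was 0 in both comparisons, and the list kept its direction on the deposited values (median -0.37, 11 lower and 2 higher with CsA, and 0.30, 9 higher and 2 lower in the untreated allograft). Between the pteridines, 7 of the 24 were higher with ABH4 than with BH4 and 0 lower, beside 3.24% and 4.11% of all genes. Against the untreated allograft BH4 had 0 higher and 4 lower (4.9% and 3.35% of all genes), ABH4 1 higher and 0 lower (3.22% and 2.49%) and NIL 1 higher and 2 lower (6.37% and 5.33%), while CsA against the syngraft had 3 higher and 2 lower (6.83% and 5.84%). The chemokine Ccl3 had 43.5 with CsA, 216 with BH4, 572 with ABH4, 292 with NIL and 538 in the untreated allograft, against 35.5 in the syngraft. Interferon-gamma, Ifng, had 102 with CsA, 400.04 with BH4, 738 with ABH4, 484 with NIL and 586 in the untreated allograft, with the syngraft array below the floor. Lower in the untreated allograft than in the syngraft was Il4, at least 1.74-fold, with 60.6 in the syngraft. The T cell growth factor Il2 was at the floor on all 6 arrays. Gzmb, a granule protease of the same cells and no member of the list, had 346 with CsA, 2973 with BH4, 3703 with ABH4, 3358 with NIL and 3888 in the untreated allograft, with the syngraft array below the floor. The part of T cell numbers, whose marker sums are given above, was not tested for these genes.

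**Figure D4:**
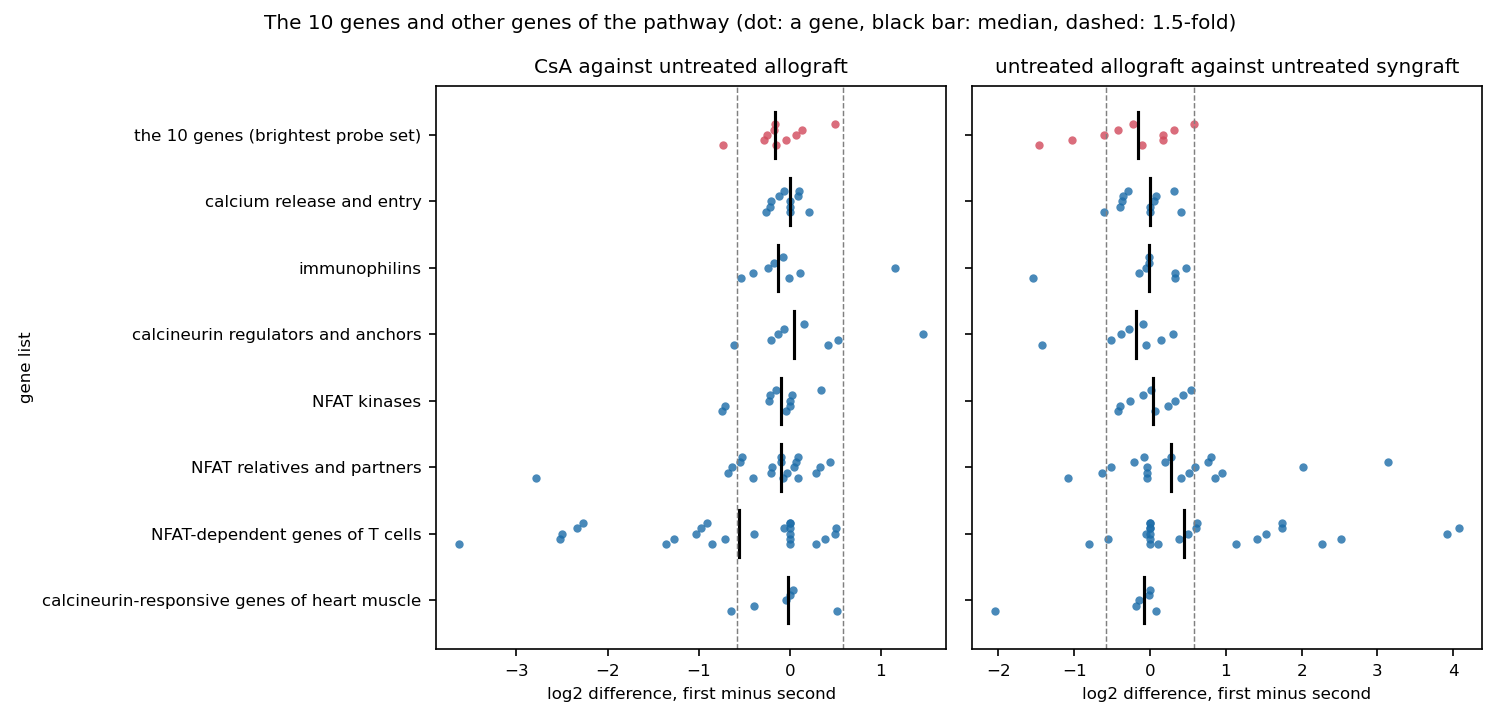
Log2 differences of the 10 genes (red) and of the other pathway genes by list (blue), 1 dot per gene from its brightest probe set, with list medians as black bars and 1.5-fold as dashed lines, for CsA against untreated allograft (left) and untreated allograft against syngraft (right). The T cell list reaches furthest, to -3.63 under CsA (Ccl3) and at least 4.07 in the untreated allograft (Ifng, with the syngraft at the floor). The 10 genes stay between -1.46 and 0.58.

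The lists of calcium handling genes, immunophilins, regulators and kinases had medians between -0.18 and 0.05 in both comparisons on the rescaled values. On the deposited values they lay between -0.37 (untreated allograft) and 0.23 (CsA), both from the regulators. With CsA the immunophilins turned from -0.13 to 0.06 and the kinases from -0.09 to 0.09. The shares of all genes to read their counts against are those given above for the T cell genes (9.31% higher and 12.2% lower with CsA, 15.4% and 11.9% in the untreated allograft). Of 11 measured genes of calcium release and entry, 0 were apart with CsA and 1 was lower in the untreated allograft than in the syngraft, the calcium release channel Itpr2 (1.52-fold). Of 8 immunophilins, which include the cyclophilins that bind CsA, 1 was higher with CsA, the cyclophilin Ppic (2.22-fold), which was also the 1 lower in the untreated allograft than in the syngraft (2.90-fold). Ppic had 390.3 with CsA, 311 with BH4, 269 with ABH4, 209 with NIL and 176 in the untreated allograft, against 511 in the syngraft. The 8 fibroblast and matrix markers summed to 25472 with CsA, 19057 with BH4, 10173 with ABH4, 4631 with NIL and 5095 in the untreated allograft, against 28951 in the syngraft, with Pdgfra at the floor under NIL and in the untreated allograft, and their part in the Ppic difference was not tested.

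Of 8 calcineurin regulators and anchors, Homer3, a scaffold that competes with calcineurin for NFAT, was 2.76-fold higher with CsA and 2.68-fold lower in the untreated allograft than in the syngraft. Homer3 had 119 with CsA, 86.5 with BH4, 73.9 with ABH4, 102 with NIL and 43.0 in the untreated allograft, against 115 in the syngraft. Both differences share the untreated allograft array, where Homer3 was near the floor of 34.8 and below every other array. The calcium-binding Cib1 was 1.53-fold lower with CsA. Of 10 NFAT kinases 2 were lower with CsA, Mapk9 (1.67-fold) and Mapk14 (1.64-fold), beside 12.2% of all genes lower. On the deposited values 0 kinases were lower with CsA, and of the 8 regulators 3 were higher and 0 lower, where 1 was higher and 1 lower after rescaling. On the rescaled values 0 kinases were apart between untreated allograft and syngraft. Of 19 NFAT relatives and partners 3 were lower with CsA, led by the AP-1 factors Batf (6.90-fold) and Jund (1.59-fold), and 1 on the deposited values. Their median was -0.09, and 0.09 on the deposited values. In the untreated allograft 7 of them were higher than in the syngraft and 2 lower (median 0.28), beside 15.4% and 11.9% of all genes, and 5 higher and 3 lower on the deposited values (median 0.10). Batf was 8.77-fold and Irf8 4.05-fold higher, the muscle factor Mef2c was 2.13-fold lower and the regulatory T cell factor Foxp3 at least 1.55-fold lower. Foxp3 was dim, with 53.9 in the syngraft and at most 39.2 (ABH4) on the allograft arrays, near the floor of 34.8. Batf had 47.9 with CsA, 229 with BH4, 247 with ABH4, 273 with NIL and 330.2 in the untreated allograft, against 37.6 in the syngraft.

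Of 6 measured calcineurin-responsive genes of heart muscle 1 was lower with CsA, the vasoconstrictor peptide Edn1 (1.57-fold), and 0 higher, beside 12.2% and 9.31% of all genes. On the deposited values 0 were lower with CsA and 1 higher, and after quantile normalization 1 was lower and 1 higher. The untreated allograft had 1 lower than the syngraft and 0 higher, beside 11.9% and 15.4% of all genes. In the untreated allograft Acta1, the skeletal actin that stressed heart muscle makes, was 4.13-fold lower than in the syngraft, with 1986 under CsA, 1612 with BH4, 1298 with ABH4, 1306 with NIL and 1390 in the untreated allograft, against 5742 in the syngraft. Acta1 is 1 of 5 skeletal muscle markers, whose sum was 2057 with CsA, 1691 with BH4, 1346 with ABH4, 1389 with NIL and 1457 in the untreated allograft, against 5790 in the syngraft. Acta1 made up nearly all of that sum on every array, so the sum follows Acta1 by construction. Of the other 4, Myh1, Myh4 and Tnni2 were at the floor on all 6 arrays, and Tnnt3 was above it with CsA, BH4 and NIL (50.3 to 50.9) and at it on the remaining 3. The part of skeletal muscle in the Acta1 difference was not tested. The natriuretic peptide Nppb had 6755 with CsA, 5917 with BH4, 5762 with ABH4, 6292.5 with NIL and 6612 in the untreated allograft, against 6696 in the syngraft.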

How the data were processed

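Total RNA of mouse cardiac grafts was measured on 6 Affymetrix 1-colour arrays, 1 for each group. The authors deposited 1 linear signal intensity per probe set and array (22690 probe sets). The mean after trimming 2% from each end was 200 on every array of the deposited table, so the authors' values were already scaled. Scanner software, summarisation and background correction are not given in the sources used here.

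Control probe sets were left out (22626 kept) and each array was rescaled to the mean of the 6 medians, a shift of -0.09 to 0.10 on the log2 scale. Values under the 30th percentile were set to it, and log2 was taken. Probe sets were named by the platform annotation, with symbols updated through RefSeq identifiers (20351 of 20380 found), and 691 probe sets listed for several genes and 1555 with none were not used. Deposited medians lay between 77.7 and 88.5, and the highest signals between 8819 and 10669. The number of arrays limits the precision.

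Each of 7 comparisons is a log2 difference between 2 arrays, counted past 1.5-fold beside the same count over all probe sets or genes. No test was made. The members and lists were chosen with earlier results of these data known. Named besides the members were the 2 genes furthest each way per list under CsA and in the untreated allograft, the 3 nearest genes per member, and Ifng and Gzmb. Usp47, Il2 and Nppb values were added after values were seen. The scaling and counting steps were tested on simulated data. Python 3.11.15, numpy 2.4.6 and pandas 2.3.3 were used.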

Additional observations from a re-analysis of the deposited data

How the results depend on the processing

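Tried instead were a lower floor (10th percentile) and a higher one (50th), the values as deposited, quantile normalization, leaving out probe sets at the floor on either array, and for single genes the mean over probe sets. The count of the 25 probe sets at least 1.5-fold apart for CsA against untreated allograft was 3, and 1 with the 50th percentile floor. For BH4 it was 1, and 3 with the 10th percentile floor. For ABH4 it was 1, 2 on the deposited values and with the 10th percentile floor, and 0 with the 50th percentile floor and without probe sets at the floor. For NIL it was 5, and 2 after quantile normalization and with the 50th percentile floor. For untreated allograft against syngraft it was 10, and 6 with the 50th percentile floor. For ABH4 against BH4 it was 2, 4 with the 10th percentile floor, 0 with the 50th percentile floor and 1 without probe sets at the floor. A higher floor turns dim probe sets into equal values, and a lower one admits them. The other alternatives left these counts within 1.5 times, and the CsA count against syngraft under all of them. Of 350 gene values under the alternatives, 237 moved by at most 0.1 on the log2 scale, 113 by more, and 0 values past 1.5-fold changed sign. No paired analysis was possible because each group holds 1 array, and for the same reason no replicate could be left out.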
